A study of Homo sapiens and Mus musculus with 33 samples.

Results

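T-rich 3' UTRs are the untranslated 3' ends of human transcripts in which at least 35% of the bases are T. They were taken from bulk SLAM-seq of Jurkat cells, clone E6-1, a human T cell leukaemia line. The 122255 annotated 3' UTR rows of the tables overlap, so each group of overlapping rows on a strand was represented by its most-read row, which left 68314 groups outside the mitochondrial genome. Of these, 8692 had a length of at least 300 and under 3000 bases and at least 300 reads summed over the 9 libraries, and 1457 of those (16.8%) were T-rich. The other 7235 are called the rest below. T share, length and read number chose the members, and no measured conversion or treatment response did. The number of T positions covered per read tracked the T share alike for 3' UTRs on the plus strand (Spearman rho 0.672 over 4696) and on the minus strand (0.674 over 3996). Both counts come from the same tables, so this cannot show that T was counted in the sense of the RNA. These rho values are descriptions, since reads of a library are shared by all 3' UTRs.

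The libraries comprise 3 from cells given CPT at 50 nM, 3 from cells given ETO at 1 µM and 3 controls, and all 9 are titled as labelled with 4-thiouridine (4sU). The labels carry the abbreviations CPT and ETO only. These abbreviations commonly stand for camptothecin and etoposide, poisons of topoisomerase I and topoisomerase II. The 4sU dose, the labelling time and the time of treatment are not stated in the labels. 4sU is a uridine analogue that growing cells build into new RNA. Iodoacetamide alkylates it, and reverse transcription then reads C in place of T. The conversion rate is used below as the number of T-to-C conversions per covered T position, in percent. This scales it to the T positions covered. It can still depend on T per read if only reads with more than a single conversion were counted, which is not stated. An unlabelled bulk Jurkat library was not analysed here, so the background of the rate was not measured. Poly(A) RNA was sequenced from its 3' end without molecular identifiers, so counting intervals would cover counting error only.

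Where T is counted in the sense of the RNA, a T-rich 3' UTR is a U-rich one in mRNA. Runs of U and of A with U are bound by proteins of the HNRNP, ELAV, TIA and ZFP36 families, which recruit or hold off the decay machinery, direct polyadenylation and steer translation. AU-rich elements are best known from short-lived mRNAs of cytokines and early response genes in T cells. 3' UTR sequence was not used here, so the T share is described as a composition and not as a count of such elements.

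CPT libraries held 19049328 to 23892962 reads over all groups, ETO libraries 24760583 to 40839672 and control libraries 32917933 to 38991249. Mitochondrial transcripts took 6.03% ± 0.688 of reads with CPT, 2.96% ± 0.0764 with ETO and 1.14% ± 0.0954 in control (SD, n = 3 each). Whether replicates are separate cultures is not stated in the labels, and p-values then describe the spread among libraries, which may be technical. Total RNA was scaled to the library, and fewer cells of a kind cannot be told apart from less RNA per cell. CPM, counts scaled to 1000000 reads, are used for levels. Those of named genes also carry edgeR's TMM factors, and the marker sums that follow do not, so the scales differ. The 12 Jurkat T cell markers summed to 2520 to 2560 CPM with CPT, 2230 to 2270 with ETO and 2270 to 2360 in control. CD3E alone averaged 523 CPM with CPT and 294 in control on that scale. In edgeR's test with TMM, 2 of the 12 markers were higher and 6 lower with CPT than in control (median log2 fold change -0.29). The B cell, myeloid, erythroid and epithelial lists each summed to at most 13.1 CPM in any library.

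The members had a median T share of 36.7% and a highest of 48.4%, against a median of 27.7% in the rest. Their median length of 1180 bases and their median of 6096 summed reads lay close to the 1120 bases and 5929 reads of the rest. The position in the genome was uneven. On chromosomes 22, 19, 16 and 17, which are gene-dense and GC-rich, 2.35%, 3.56%, 3.83% and 5.01% of the 3' UTRs within the limits were T-rich. On chromosomes 5, 4 and 13 the share was 27.5%, 28.6% and 36.1%. Genes could be assigned to 1385 members (1345 symbols, 9 of the members from long noncoding RNAs), and 72 stayed unnamed. The genes of T-rich 3' UTRs were long, with a median span of 47.7 kb (quartiles 22.1 and 93.7 kb, 1385 members), against 25.8 kb (quartiles 10.7 and 58.8 kb, 6703) in the rest.

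By gene family, heterogeneous nuclear ribonucleoproteins were often members: 9 of 16 HNRNP genes within the limits (56.2%) had a T-rich 3' UTR. They were HNRNPC, HNRNPD, HNRNPDL, HNRNPF, HNRNPH1, HNRNPH3, HNRNPK, HNRNPL and HNRNPLL. These proteins package nascent RNA and regulate its splicing, and HNRNPC itself binds U tracts. Cytosolic ribosomal protein genes lay at the other end with 1 of 44 (2.27%), RPL7. Zinc finger genes with symbols starting ZNF or ZFP held 42 of 301 (14.0%). Among the lists described below, 12 of 26 genes of the G2/M list, 8 of 19 of DNA damage signalling and repair and 7 of 19 binders of U-rich and AU-rich elements within the limits were members. The immediate early list had 1 of 25, p53 targets 1 of 18 and the G1/S list 2 of 24. These shares are descriptions of families picked with their values in view. The highest T share was that of ANXA2R, a gene named for an annexin A2 receptor, at 48.4% of 384 bases on chromosome 5. MTBP, which encodes a binding partner of MDM2, followed with 47.3% of 300 bases. GOLGA6L9 had 45.6% and TM2D1 45%, and 95.4% of the GOLGA6L9 reads mapped to several places.

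T-rich 3' UTRs were converted at a higher rate than the rest in every library. The median conversion rate over the members was 0.144%, 0.142% and 0.151% in the CPT libraries, 0.330%, 0.326% and 0.316% in the ETO libraries and 0.329%, 0.312% and 0.319% in the control libraries. The median over the rest was 0.0722%, 0.0807% and 0.0810% with CPT, 0.209%, 0.213% and 0.206% with ETO and 0.199%, 0.196% and 0.194% in control. The sets thus did not overlap in any group, and in control the members lay 1.63 ± 0.0361 times as high as the rest (SD, n = 3). With all conversions of a set pooled, so that 3' UTRs with many reads weigh most, the control rate was 0.255% ± 0.00608 for the members and 0.176% ± 0.00265 for the rest. The share of reads with a conversion in control was 3.35% ± 0.103 for the members and 1.93% ± 0.0416 for the rest. Reads of the members covered 31.0 T positions on average in control, against 25.1 in the rest, which raises the share of converted reads. In control replicate 1 the members had 245370 conversions, while 3.46% of their 3001015 reads were converted. A converted read thus held more than a single conversion on average. If only such reads were counted, more T per read would raise the rate per T as well. The part of T per read in this gap and in the rise with T share was not tested.

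The rate grew gradually with T share. In control the median rate was 0.0811% ± 0.00588 for 560 3' UTRs under 20% T, 0.172% ± 0.00412 at 23 to 26%, 0.238% ± 0.00423 at 29 to 32% and 0.264% ± 0.00703 at 32 to 35%. It reached 0.316% ± 0.0106 at 35 to 38% and 0.337% ± 0.0102 at 38 to 41%, and was 0.319% ± 0.0242 for the 56 members above that (SD over 3 libraries). The 232 members nearest inside the 35% limit had a median of 0.307%, and the 254 3' UTRs nearest outside it 0.259%. Across all 8692 the rank correlation of T share and pooled control rate was 0.317, across the rest 0.280 and within the 1457 members 0.0552. These correlations run across 3' UTRs of the same libraries and carry no test.

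**Figure D1:**
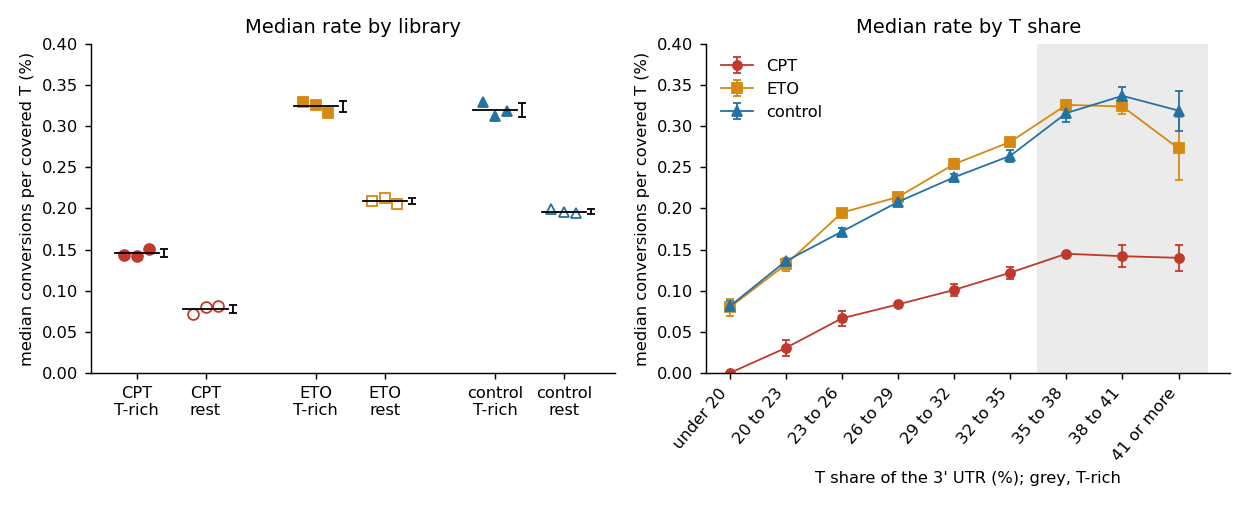
Left: median conversions per covered T (percent, axis from 0) over the T-rich 3' UTRs (filled) and the rest (open) in each CPT, ETO and control library, with the mean as a line and the SD as a bar (n = 3). Right: the same median by T share of the 3' UTR, as mean ± SD over 3 libraries. T-rich medians lay at 0.142 to 0.151% with CPT and at 0.312 to 0.330% with ETO and in control, above the rest in each library, and the rise with T share levelled off above 35%.

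At every band of length, read number and gene span the members had the higher control rate. Members of 300 to 600 bases had a median rate of 0.276% ± 0.00914 and the rest 0.129% ± 0.003. At 2000 to 3000 bases the values were 0.344% ± 0.00292 for members and 0.255% ± 0.00481 for the rest. With 1000 to 3000 summed reads the members stood at 0.438% ± 0.0141 and the rest at 0.243% ± 0.00901. The gap was narrowest above 30000 reads, with 0.165% ± 0.00887 for members and 0.125% ± 0.00212 for the rest. In genes spanning under 10 kb the members had 0.465% ± 0.0226 and the rest 0.181% ± 0.00485, and in genes of 100 kb or more 0.316% ± 0.0139 and 0.218% ± 0.0081 (SD, n = 3 throughout). From 1000 reads up, the members' rate fell from band to band, at 0.438%, 0.412%, 0.268% and 0.165%. Members with 300 to 1000 reads stood lower than the next band, at 0.306% ± 0.0347. The rank correlation of summed reads and rate was -0.282 within the members and -0.17 within the rest.

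Control rates of the members spread widely, and genes were named at both ends. Among members with at least 100 control conversions, the 6 with the highest control rate were SPRY1, FBXO5, BAMBI, FAM83D, KLF10 and WASL. SPRY1 encodes a feedback inhibitor of receptor tyrosine kinase signalling, and its 3' UTR (1201 bases, GRCh38 chr4:123402552-123403752, plus strand) was converted at 2.04%, 1.36% and 0.913% with CPT, 2.52%, 1.06% and 1.65% with ETO and 2.49%, 1.58% and 2.01% in control. The 3 groups overlapped for SPRY1, which had only 897 reads in all. FBXO5 encodes EMI1, the inhibitor that keeps the anaphase-promoting complex off until mitosis. Its 3' UTR (chr6:152970535-152971162, minus strand) was converted at 1.02%, 0.956% and 0.933% with CPT, 1.83%, 1.75% and 1.86% with ETO and 1.83%, 1.63% and 1.76% in control. Each CPT value of FBXO5 was under every ETO and control value, and ETO and control overlapped (CPT against control log2 fold change -0.85 ± 0.24 SE, edgeR adjusted p = 0.045, up to 0.15 and no longer called without any 1 ETO or control library). KLF10, a zinc finger factor induced early by TGF-beta, had 1.03%, 1.05% and 0.855% with CPT, 1.64%, 1.78% and 1.77% with ETO and 1.44%, 1.68% and 1.74% in control. BAMBI is a decoy receptor of TGF-beta signalling, FAM83D a spindle protein and WASL an activator of actin branching, with mean control rates of 1.71% ± 0.486, 1.64% ± 0.155 and 1.61% ± 0.555 (SD, n = 3).

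The 6 lowest control rates belonged to FKBP1A, COX6C, BRWD1, TXN, ITM2A and STT3B. FKBP1A encodes the prolyl isomerase that binds the immunosuppressant FK506. Its 3' UTR (chr20:1368979-1370028, minus strand) was converted at 0.0106%, 0.0177% and 0.0384% with CPT, 0.0479%, 0.0425% and 0.0558% with ETO and 0.0329%, 0.0365% and 0.0310% in control. ETO lay above control for FKBP1A but was not called against it (edgeR adjusted p = 0.9), and CPT overlapped control. COX6C, a subunit of the respiratory chain, and TXN, the redox protein thioredoxin, averaged 0.0336% ± 0.0114 and 0.0445% ± 0.00545 in control. ITM2A, a membrane protein of activated and immature T cells, had 0.0342%, 0.0370% and 0.0332% with CPT, 0.0825%, 0.101% and 0.0791% with ETO and 0.0691%, 0.0507% and 0.0449% in control. The ITM2A groups did not overlap, with CPT lowest and ETO highest (CPT against ETO -1.32 ± 0.2, edgeR adjusted p = 0.0052). ETO against control was not called for ITM2A (edgeR adjusted p = 0.37). BRWD1, a chromatin reader, and STT3B, the catalytic subunit of an oligosaccharyltransferase, averaged 0.0371% ± 0.0117 and 0.0555% ± 0.0077 in control. Zinc finger genes with a T-rich 3' UTR had a median control rate of 0.717%, against 0.480% for the other zinc finger genes within the limits. For HNRNP genes the medians were 0.150% with and 0.142% without a T-rich 3' UTR.

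**Figure D2:**
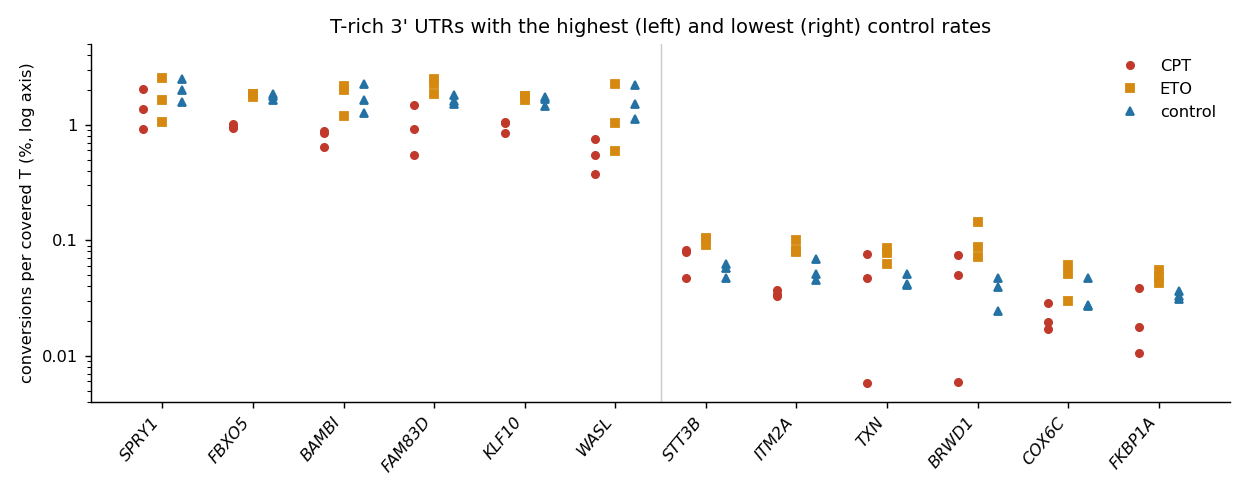
Conversions per covered T (percent, log axis) in each CPT, ETO and control library for the 6 T-rich 3' UTRs with the highest and the 6 with the lowest control rates among those with at least 100 control conversions. SPRY1 reached 2.49% in a control library, and FKBP1A lay at 0.0310 to 0.0365% in control.

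The comparison of CPT with control asks how the drug changes the labelling of T-rich 3' UTRs. The members' median rate was 0.146% ± 0.00473 with CPT, against 0.320% ± 0.00854 in control, a ratio of 0.455. In the rest it was 0.0780% ± 0.005 with CPT, against 0.196% ± 0.00252 in control, a ratio of 0.397. By pooled conversions the ratios were 0.642 for the members and 0.670 for the rest. The members over the rest therefore stood at 1.75 to 1.99 with CPT and 1.59 to 1.66 in control by medians, but at 1.37 to 1.42 with CPT and 1.44 to 1.46 in control by pooled rates, so the direction of this difference depends on the summary. CPT libraries are the shallowest, and the lower quartile of the rest was 0.0% in each of them. The part of depth in the medians was not tested.

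Tested 1 by 1 with edgeR, 179 of 1350 members with at least 50 conversions (13.3%) had a lower conversion rate with CPT than in control, and 0 a higher one. Among all 11011 3' UTRs tested, 11.8% were lower and 0.0908% higher, so the members' share lay near that of all. The median log2 fold change was -1.0 over the members and -0.95 over all, and 93.9% of the members and 89.9% of all lay below 0. Without control replicate 1, 2 or 3 no member was called in either direction, without an ETO replicate 115 to 119 were lower, and without CPT replicate 3 the count was 276. By converted reads 265 of 1360 were lower. Relative to the pooled rate of each library, 0 members were lower and 1 higher.

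Among the members with the largest decreases, no conversion was seen with CPT, and the folds set 3 conversions over the group in place of 0. Conversions of the same read are not independent, so these folds are not strict bounds. A floor counted in reads would give smaller folds. CNTRL encodes centriolin, a centrosomal protein needed for the last step of cell division. It had 0 conversions in all 3 CPT libraries, 0.254%, 0.335% and 1.08% with ETO and 0.484%, 0.627% and 0.718% in control. With 3 conversions set for CPT, that is a rate 38.8-fold lower than in control (edgeR adjusted p = 0.016). ANKRD42 was likewise at 0 with CPT, against 0.395%, 0.616% and 0.479% in control, 33.4-fold lower by the same floor (edgeR adjusted p = 0.014). TBC1D32, TRMT11, FAN1 and ZNF280D, also at 0 in every CPT library, were 19.7-fold, 18.7-fold, 14.4-fold and 12.9-fold lower with CPT by that floor. With 0 conversions in the CPT libraries, these 6 passed the minimum of 50 conversions through ETO and control libraries alone, so they had to be lower with CPT, and their calls are given as a description. FAN1 had 38 conversions with ETO and 32 in control, and TBC1D32 had 50 and 51. All reads of the FAN1 3' UTR, a gene of DNA crosslink repair, mapped to several places. Leaving out any 1 control library ended each of these 6 calls, with edgeR adjusted p up to 0.11.

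Well-covered members showed the same direction with smaller changes. EIF4G2, a translation initiation factor, had 0.0856%, 0.0869% and 0.0994% with CPT, 0.137%, 0.146% and 0.145% with ETO and 0.132%, 0.134% and 0.136% in control. All 3 CPT values lay under the others (log2 fold change -0.57 ± 0.09 SE against control, edgeR adjusted p = 0.012). H2AZ1, the histone variant H2A.Z and the most-read member, had 0.107%, 0.101% and 0.0992% with CPT, 0.161%, 0.152% and 0.147% with ETO and 0.134%, 0.137% and 0.128% in control. CPT was lowest and ETO highest for H2AZ1 with no overlap (CPT against control -0.38 ± 0.08, edgeR adjusted p = 0.022). ETO against control was not called for H2AZ1 (edgeR adjusted p = 0.57). Relative to the pooled rate of the library, CPT lay above control for EIF4G2 and H2AZ1, at log2 0.06 and 0.25. PUM2, a repressor that binds UGUA-type elements in 3' UTRs, fell further, with 0.146%, 0.0909% and 0.0464% with CPT, 0.311%, 0.297% and 0.394% with ETO and 0.426%, 0.506% and 0.421% in control (CPT against control -2.37 ± 0.38, edgeR adjusted p = 0.013). These calls, too, were lost without any 1 control library.

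The targets of both drugs are among the members. TOP1, topoisomerase I, had a conversion rate of 0.0770%, 0.0754% and 0.113% with CPT, 0.211%, 0.147% and 0.185% with ETO and 0.191%, 0.215% and 0.203% in control. CPT lay under both other groups (against control -1.22 ± 0.2, edgeR adjusted p = 0.013, lost without any 1 control library), and 62.0% of TOP1 reads mapped to several places. Its total RNA was 326, 302 and 287 CPM with CPT, 311, 312 and 342 CPM with ETO and 281, 294 and 298 CPM in control, with no call against control (log2 fold change 0.07 ± 0.06 with CPT, edgeR adjusted p = 0.36, and 0.15 ± 0.06 with ETO, edgeR adjusted p = 0.059). TOP2A and TOP2B, the topoisomerase II isoforms of dividing and of all cells, did fall in total RNA. TOP2A had 194, 211 and 206 CPM with CPT, 203, 209 and 199 CPM with ETO and 297, 304 and 327 CPM in control, so that both drug groups lay under control (-0.60 ± 0.06 for each, edgeR adjusted p = 1.4e-08 with CPT and 4e-08 with ETO). TOP2B had 263, 256 and 248 CPM with CPT, 258, 257 and 268 CPM with ETO and 309, 317 and 296 CPM in control (-0.27 ± 0.05, edgeR adjusted p = 0.00025 with CPT, and -0.24 ± 0.05, edgeR adjusted p = 0.0012 with ETO). TOP1 was singled out after its values were seen.

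With ETO the members' median rate was 0.324% ± 0.00721, against 0.320% ± 0.00854 in control, and the groups of libraries overlapped. In the rest it was 0.209% ± 0.00351 with ETO, against 0.196% ± 0.00252 in control. By pooled conversions the members stood 1.13 times and the rest 1.19 times as high with ETO as in control. Of 1350 members, 3 (0.222%) had a higher rate with ETO in edgeR's test and 0 a lower one, against 0.300% higher and 0.0182% lower of all 11011 (0.318% together), and 72 members had an unadjusted p under 0.05. The 3 were PTPRC, HNRNPDL and HNRNPH1. PTPRC encodes CD45, the phosphatase that sets the activity of T cell receptor kinases, and was converted at 0.172%, 0.152% and 0.221% with ETO, against 0.0557%, 0.0895% and 0.0696% in control (log2 fold change 1.35 ± 0.23, edgeR adjusted p = 0.048). HNRNPDL had 0.382%, 0.386% and 0.410% with ETO, against 0.254%, 0.253% and 0.228% in control (0.69 ± 0.11, edgeR adjusted p = 0.045). For HNRNPH1, with 94.4% of reads mapped to several places, the means were 0.232% ± 0.00981 with ETO and 0.147% ± 0.00684 in control. Leaving out any 1 ETO or control library ended all 3 calls, and a test of converted reads made 0 calls in either direction.

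CPT and ETO were also set directly against each other. With CPT 357 of 1350 members (26.4%) were lower than with ETO and 0 higher in edgeR's test, and of all 11011 3' UTRs tested 24.2% were lower and 0.0363% higher. All 7 T-rich binders of U-rich and AU-rich elements were among the lower ones (FUBP3, HNRNPC, HNRNPD, HNRNPDL, PUM2, RBMS1 and SYNCRIP), of 21 lower among the 34 genes of that list tested. Relative to the pooled rate of each library no member was called, and HNRNPD and HNRNPDL turned to log2 0.04 and 0.16. The calls of FUBP3 and SYNCRIP were lost without any 1 ETO or control library, and also without CPT replicate 2 for FUBP3 and CPT replicate 3 for SYNCRIP (edgeR adjusted p up to 0.09 and 0.1). The RBMS1 call was lost without ETO replicate 1 or 2 (edgeR adjusted p up to 0.074). HNRNPC had 0.0745%, 0.0967% and 0.0800% with CPT, against 0.180%, 0.148% and 0.193% with ETO and 0.136%, 0.148% and 0.145% in control. The CPT values lay under all others (CPT against ETO -1.06 ± 0.14, edgeR adjusted p = 0.004), and 41.4% of the reads mapped to several places. Without ETO replicate 1 the count was 113 lower and 1 higher. It was 132 lower without ETO replicate 2 or 3 and 194 to 205 without a control replicate, and 11 were lower with only the 2 groups in the fit. Members without a single conversion in CPT libraries led here too. With 3 conversions set for CPT, ANKRD42 was 25.8-fold, CNTRL 36.0-fold, L3HYPDH 16.0-fold and TXNDC16 21.2-fold lower than with ETO. The call of L3HYPDH was lost without ETO replicate 1 or 2 (edgeR adjusted p up to 0.058) and that of TXNDC16 without any 1 ETO library (up to 0.064). These 4, too, passed the minimum without a CPT conversion.

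In total RNA, T-rich 3' UTRs were more often lower than higher with both drugs. Together the members took 8.45%, 8.28% and 8.28% of all reads with CPT, 8.68%, 8.80% and 8.84% with ETO and 9.12%, 9.03% and 9.21% in control, and the 3 groups did not overlap. The rest stood in the same order without overlap, at 49.6 to 50.4% with CPT, 51.3 to 51.5% with ETO and 51.9 to 52.2% in control. A smaller share of all reads with the drugs was therefore not particular to the members. All 1457 members passed the filter on low counts. With CPT 546 were lower (37.5%) and 233 higher (16.0%) than in control at an edgeR adjusted p under 0.05, in all 53.5%. Among all 17549 3' UTRs tested, 24.6% were lower and 23.0% higher, in all 47.6%, and in the rest within the same limits 27.4% were lower and 28.0% higher. The median log2 fold change was -0.14 over the members and 0.00 over all. With ETO 377 members were lower (25.9%) and 213 higher (14.6%), against 16.9% lower and 17.1% higher (34.0% in all) of all 3' UTRs tested and 19.6% lower and 22.5% higher of the rest. Both drugs were compared with the same control libraries. Between the drugs, 296 members were lower (20.3%) and 168 higher (11.5%) with CPT than with ETO, against 16.3% and 13.5% of all 17549 (29.8% together) and 19.9% and 17.9% of the rest. The mitochondrial share of reads, given above, was also highest with CPT and lowest in control. Mitochondrial reads are part of all reads here, and their part in the shares of all reads was not tested. The fold changes and calls came from counts and library sizes without mitochondrial reads.

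With CPT the share of 3' UTRs that were lower grew with T share up to 38% T, and the share that were higher shrank. With CPT, 19.3% of those under 20% T were lower and 38.4% higher. At 26 to 29% T the shares were 26.2% lower and 28.3% higher, and at 35 to 38% T they were 39.0% and 14.6%. Just outside the limit, at 32 to 35% T, 37.0% of 1544 were lower and 18.5% higher with CPT, and 24.7% and 15.7% with ETO. The members' shares thus lay near those of the adjoining band of the rest. Above that the trend did not go on: 33.5% lower and 20.0% higher at 38 to 41% (310 members), and 28.6% and 21.4% for the 56 members above. With ETO the lower share was 20.7% under 20% T, 16.1% at 23 to 26%, 27.5% at 35 to 38% and 17.9% for the 56 most T-rich. The higher share with ETO was 25.7%, 27.2%, 14.6% and 21.4% in the same bands, so neither ETO share moved in 1 direction.

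**Figure D3:**
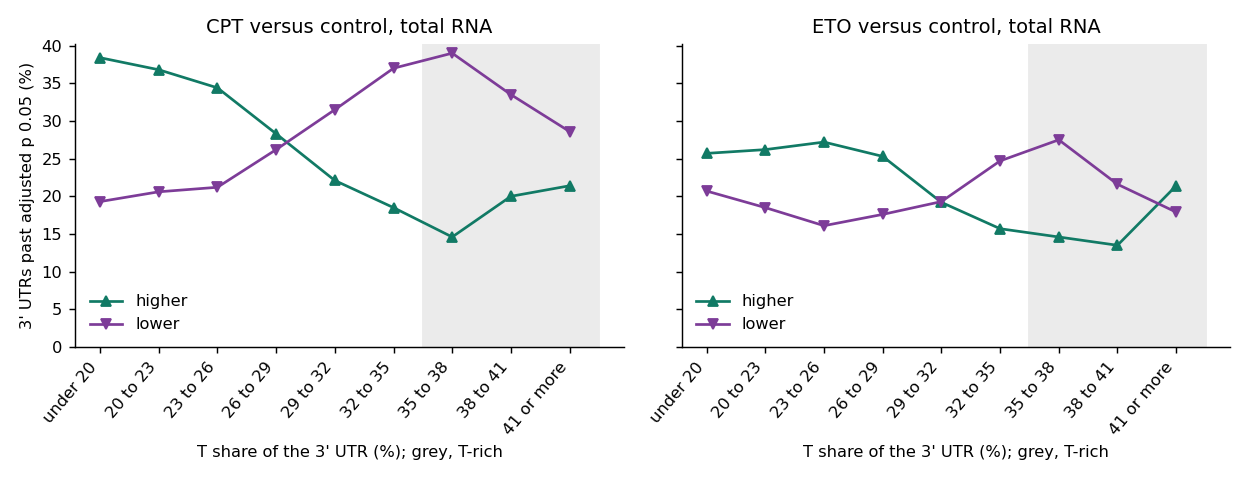
Share of 3' UTRs (percent of those tested, axis from 0) with higher or lower total RNA than control, by T share, for CPT and ETO (edgeR adjusted p under 0.05; 56 to 1544 3' UTRs per point). With CPT 39.0% were lower and 14.6% higher at 35 to 38% T, against 37.0% and 18.5% at 32 to 35% T and 19.3% and 38.4% under 20% T.

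Gene span and read number moved with these shares. In genes spanning under 10 kb, 44.8% of 134 members were lower with CPT, against 25.7% of 1576 in the rest. At 10 to 30 kb the shares were 38.3% of members and 24.5% of the rest, and at 30 to 100 kb 34.9% and 29.3%. In genes of 100 kb or more the sets were alike, with 38.2% of 325 members and 37.9% of 976 in the rest. With ETO the members' lower share shrank from band to band, at 39.6%, 33%, 24.0% and 16.9%, while the rest stayed at 21.5%, 20.3%, 20.2% and 15.7%. In genes of 100 kb or more, 58 members were higher with ETO (17.8%) and 55 lower, so decreases did not outnumber increases there. By read number, 14.2% of members with 300 to 1000 reads and 66.5% of those with 30000 or more were lower with CPT, against 8.48% and 50.6% in the rest. Differences between the bands of members and rest are given without a test.

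**Figure D4:**
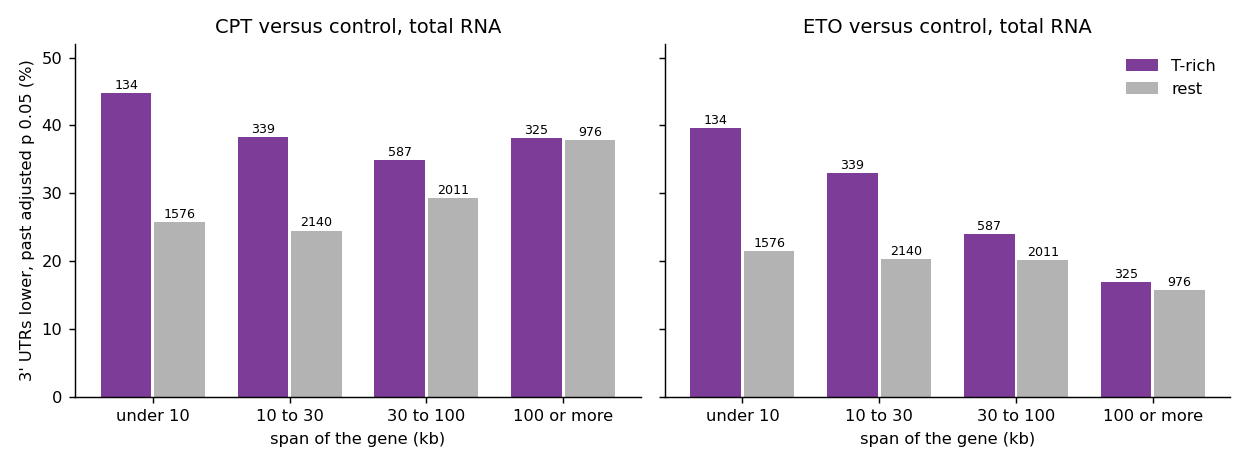
Share of 3' UTRs (percent, bars from 0) with lower total RNA than control, for T-rich 3' UTRs and the rest, by the span of the gene, with CPT and with ETO (edgeR adjusted p under 0.05; numbers above bars are 3' UTRs tested). Under 10 kb 44.8% of T-rich 3' UTRs were lower with CPT and 25.7% of the rest, and at 100 kb or more 38.2% and 37.9%.

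Members with large increases included the genes GZMK, SRGN, IL26 and CD48 of lymphocyte function. A value here is that of the named 3' UTR, and a gene may have other 3' UTRs. GZMK encodes granzyme K, a serine protease of cytotoxic granules (644 bases, GRCh38 chr5:55033927-55034570, plus strand). It had 21.0, 27.3 and 26.1 CPM with CPT, 9.24, 7.66 and 8.44 CPM with ETO and 1.05, 0.860 and 1.03 CPM in control. The 3 groups stood apart without overlap (CPT against control log2 fold change 4.65 ± 0.18 SE, edgeR adjusted p = 5.5e-15, and ETO against control 3.09 ± 0.18, edgeR adjusted p = 2.3e-11). SRGN, serglycin, the proteoglycan that packs granule proteases, had 80.3, 67.4 and 83.6 CPM with CPT, 34.8, 37.2 and 38.0 CPM with ETO and 16.9, 18.6 and 20.3 CPM in control. Again the groups did not overlap (2.05 ± 0.1 with CPT, edgeR adjusted p = 2e-13, and 0.98 ± 0.09 with ETO, edgeR adjusted p = 6.8e-08). IL26, a cytokine of the IL-10 family, had 18.9, 15.1 and 14.4 CPM with CPT, 6.02, 5.79 and 6.14 CPM with ETO and 4.09, 4.12 and 4.11 CPM in control (1.97 ± 0.15 with CPT, edgeR adjusted p = 8.3e-10). CD48, a ligand of signalling lymphocyte receptors, was higher with CPT than in both other groups, at 26.8, 25.9 and 26.8 CPM with CPT, 12.8, 10.4 and 10.1 CPM with ETO and 13.1, 12.3 and 15.1 CPM in control (CPT against ETO 1.26 ± 0.12, edgeR adjusted p = 8.3e-08). The call of CD48 with ETO against control did not pass (edgeR adjusted p = 0.071).

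Several regulators also rose. ID2, which blocks E protein transcription factors, had 135, 127 and 144 CPM with CPT, 48.8, 48.9 and 55.4 CPM with ETO and 12.2, 10.4 and 12 CPM in control (chr2:8683685-8684453, plus strand). The groups lay far apart (3.55 ± 0.09 with CPT, edgeR adjusted p = 7.9e-18, and 2.14 ± 0.09 with ETO, edgeR adjusted p = 9.1e-14), though 38.0% of its reads mapped to several places. ARRDC3, an arrestin-like adaptor for ubiquitin ligases, had 44.8, 36.2 and 42.4 CPM with CPT, 14.3, 22.1 and 19.5 CPM with ETO and 6.87, 8.20 and 5.93 CPM in control (2.56 ± 0.15 with CPT, edgeR adjusted p = 8.5e-12). KLF10, the fast-converted factor described above and the list's immediate early member, had 57.7, 57.2 and 65.9 CPM with CPT, 43.8, 43.1 and 41.0 CPM with ETO and 27.9, 30.2 and 28.7 CPM in control (1.06 ± 0.08 with CPT, edgeR adjusted p = 8.3e-10). PMAIP1, which encodes the BH3-only death protein NOXA, was the single T-rich member of the p53 target list. It stood at 67.5 ± 2.82 CPM with CPT, 61.4 ± 1.66 CPM with ETO and 42.6 ± 2.02 CPM in control (SD, n = 3), with 0.66 ± 0.07 for CPT (edgeR adjusted p = 1.4e-07) and 0.53 ± 0.07 for ETO (edgeR adjusted p = 6.9e-06). SOSTDC1, an antagonist of BMP and WNT ligands, LPCAT4, an enzyme of phospholipid remodelling, and SOS2, a RAS exchange factor, rose with ETO by log2 1.31 ± 0.09, 1.04 ± 0.15 and 0.92 ± 0.16 (edgeR adjusted p of 5.2e-10, 1.1e-05 and 0.00016). With CPT they rose too, by 1.45 ± 0.09, 1.28 ± 0.15 and 1.39 ± 0.17 (edgeR adjusted p of 3.4e-11, 3.3e-07 and 4.9e-07). ZNG1C rose with CPT by 2.09 ± 0.17 (edgeR adjusted p = 2.2e-09), but 99.8% of its reads mapped to several places and copies of this gene cannot be told apart.

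Named by the size of the change, the decreases were of genes with diverse roles. GBE1, the glycogen branching enzyme, had 11.3, 9.34 and 10.6 CPM with CPT, 13.3, 13.2 and 10.8 CPM with ETO and 30.5, 33.8 and 32.9 CPM in control (-1.64 ± 0.12 with CPT, edgeR adjusted p = 2.5e-10, and -1.38 ± 0.11 with ETO, edgeR adjusted p = 6.5e-09). Both drug groups lay under control and overlapped each other. RNASEH2B, a subunit of the enzyme that removes ribonucleotides from DNA, had 96.7, 97.2 and 96.5 CPM with CPT, 166, 173 and 179 CPM with ETO and 283, 285 and 296 CPM in control (-1.57 ± 0.06 with CPT, edgeR adjusted p = 2.2e-15, and -0.74 ± 0.05 with ETO, edgeR adjusted p = 1.2e-09). STT3B, described above for its low conversion rate, had 167, 172 and 180 CPM with CPT, 228, 223 and 208 CPM with ETO and 430, 462 and 487 CPM in control (-1.41 ± 0.06 with CPT, edgeR adjusted p = 4e-14, and -1.07 ± 0.06 with ETO, edgeR adjusted p = 1.1e-11). For RNASEH2B and STT3B no libraries of different groups overlapped. CSTF3, a subunit of the cleavage stimulation factor of 3' end formation, averaged 14.5 ± 2.04 CPM with CPT, 19.8 ± 1.15 CPM with ETO and 34.9 ± 0.384 CPM in control (-1.26 ± 0.11 with CPT, edgeR adjusted p = 3.5e-09). PAPOLA, a poly(A) polymerase, fell with ETO to 6.90, 6.07 and 7.71 CPM, against 14.6, 15.7 and 21.4 CPM in control (-1.33 ± 0.17, edgeR adjusted p = 3e-06). It was also lower with CPT (-0.93 ± 0.17, edgeR adjusted p = 0.0001). VPS13A, a lipid transfer protein, fell with CPT by 1.44 ± 0.15 on the log2 scale (edgeR adjusted p = 4.9e-08). ADNP2, PLEKHF2 and PDP1 were also named for their ETO decreases, at -1.17 ± 0.12, -1.16 ± 0.1 and -1.15 ± 0.15 (edgeR adjusted p of 8.8e-08, 1.4e-08 and 4.5e-06). With CPT they were lower as well, at -1.0 ± 0.12, -0.98 ± 0.1 and -0.60 ± 0.15 (edgeR adjusted p of 3.3e-07, 7.2e-08 and 0.0023).

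Some decreases were seen with CPT and not with ETO. The direct comparison of the drugs tests the difference between them, which also takes in any rise with ETO. EPHA3, an ephrin receptor kinase, had 5.95, 4.75 and 5.34 CPM with CPT, 19.0, 17.1 and 16.6 CPM with ETO and 13.4, 11.7 and 14.7 CPM in control. CPT lay under both other groups (CPT against ETO -1.72 ± 0.14, edgeR adjusted p = 9.8e-09). EPHA3 was also higher with ETO than in control (0.40 ± 0.13, edgeR adjusted p = 0.019), a call lost without ETO replicate 1 or control replicate 1 or 2. ARPP21, a phosphoprotein known from thymocytes and neurons, had 6.86, 8.02 and 7.43 CPM with CPT, 18.2, 19.1 and 20.4 CPM with ETO and 18.7, 15.5 and 17.1 CPM in control (CPT against ETO -1.37 ± 0.13, edgeR adjusted p = 4.2e-08). ASCC3, a helicase of alkylation repair and ribosome rescue, went in opposite directions, with 14.5, 13.8 and 11.5 CPM with CPT, 32.5, 28.0 and 31.2 CPM with ETO and 17.1, 18.2 and 21.8 CPM in control. Against control it fell with CPT (-0.52 ± 0.12, edgeR adjusted p = 0.0012) and rose with ETO (0.68 ± 0.11, edgeR adjusted p = 7.9e-05), and CPT against ETO gave -1.20 ± 0.12 (edgeR adjusted p = 1.4e-07). PSAT1, a serine synthesis enzyme of the integrated stress response list, had 160, 181 and 189 CPM with CPT, 294, 310 and 288 CPM with ETO and 235, 212 and 208 CPM in control. Here, too, CPT lay under and ETO above control (CPT against ETO -0.75 ± 0.07, edgeR adjusted p = 2.6e-08). PTPRK, a receptor phosphatase, showed -1.28 ± 0.17 for CPT against ETO (edgeR adjusted p = 6.5e-06) with 99.6% of reads mapped to several places. Against control PTPRK was lower with CPT (-0.83 ± 0.17, edgeR adjusted p = 0.0004) and higher with ETO (0.45 ± 0.16, edgeR adjusted p = 0.034). The ETO call was lost without ETO replicate 1 or 3 or control replicate 1 or 2.

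G2/M genes, which act from late S phase to cell division, made up the largest listed group. Of the 12 with a T-rich 3' UTR, 9 were lower and 1 higher with CPT, and 9 were lower and 0 higher with ETO, in edgeR's test. Over all 33 genes of the list tested, 23 were lower and 3 higher with CPT, and 25 were lower and 2 higher with ETO, so the T-rich ones are a part of a wider pattern. CCNB1, cyclin B1, had 59.0, 62.1 and 60.4 CPM with CPT, 59.9, 58.6 and 55.5 CPM with ETO and 97.3, 108 and 106 CPM in control (-0.78 ± 0.07, edgeR adjusted p = 6.1e-09 with CPT, and -0.84 ± 0.07, edgeR adjusted p = 5.4e-09 with ETO). Both drug groups lay under control. CENPE, a kinetochore motor, had 12.7, 13.8 and 13.0 CPM with CPT, 13.3, 13.2 and 14.5 CPM with ETO and 24.4, 23.7 and 29.5 CPM in control (-0.97 ± 0.11, edgeR adjusted p = 4.1e-07 with CPT). CCNA2, cyclin A2, averaged 90.0 ± 3.84 CPM with CPT, 96.6 ± 6.36 CPM with ETO and 134 ± 6.16 CPM in control (-0.57 ± 0.07 with CPT, edgeR adjusted p = 3.2e-07). BUB1B, a spindle checkpoint kinase, was lower with CPT (-0.35 ± 0.08, edgeR adjusted p = 0.0012) and showed -0.02 ± 0.08 with ETO (edgeR adjusted p = 0.9). HMMR, a spindle protein, stood at -0.19 ± 0.11 with CPT (edgeR adjusted p = 0.18) and -0.70 ± 0.11 with ETO (edgeR adjusted p = 4.7e-05). For both, CPT against ETO passed the test, at -0.33 ± 0.08 for BUB1B (edgeR adjusted p = 0.0036) and 0.51 ± 0.11 for HMMR (edgeR adjusted p = 0.0017). NEK2, a centrosome kinase, was the one higher with CPT (0.21 ± 0.08, edgeR adjusted p = 0.041), a call lost on leaving out any of 7 libraries (CPT 2 and 3, ETO 1 and 2, and each control; edgeR adjusted p up to 0.18).

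**Figure D5:**
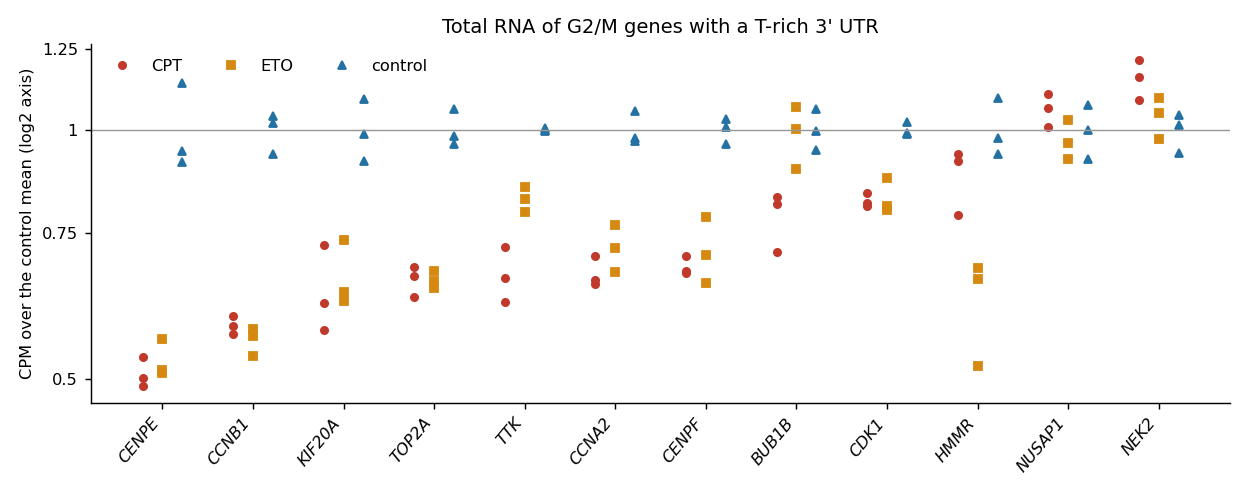
Total RNA (CPM over the mean of the control libraries, log2 axis) of the 12 G2/M genes with a T-rich 3' UTR in each CPT, ETO and control library, ordered by the CPT fold change. CENPE lay at 12.7 to 14.5 CPM with both drugs, against 23.7 to 29.5 CPM in control, and NUSAP1 and NEK2 at the right overlapped or exceeded control.

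Among genes for binders of U-rich and AU-rich elements, 7 were members. Of these, 4 were lower and 0 higher with CPT, and 4 lower and 0 higher with ETO, against 17 lower and 6 higher with CPT and 10 lower and 5 higher with ETO over the 34 genes of the list tested. HNRNPC had 764, 726 and 711 CPM with CPT, 880, 872 and 820 CPM with ETO and 1030, 1060 and 1070 CPM in control, with no overlap (-0.52 ± 0.05 with CPT, edgeR adjusted p = 9.2e-09, and -0.30 ± 0.05 with ETO, edgeR adjusted p = 4.5e-05). SYNCRIP, which binds poly(A) and AU-rich RNA, had 37.0, 27.8 and 31.0 CPM with CPT, 31.2, 32.6 and 30.7 CPM with ETO and 41.9, 44.1 and 44.0 CPM in control. Both drug groups lay under control (-0.44 ± 0.09, edgeR adjusted p = 0.00059 with CPT, and -0.46 ± 0.09, edgeR adjusted p = 0.00057 with ETO). PUM2 and HNRNPDL fell by 0.27 ± 0.06 and 0.27 ± 0.05 on the log2 scale with CPT (edgeR adjusted p of 0.0012 and 0.00018). FUBP3, HNRNPD and RBMS1 were not called with either drug, with log2 fold changes of -0.19, -0.10 and 0.12 with CPT.

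DNA repair members were mixed. Of 8, CHEK1, FANCD2, LIG4, MDC1, NBN, TOP1, TOP2B and XRCC4, 2 were higher and 3 lower with CPT and 0 higher and 2 lower with ETO, against 8 higher and 10 lower with CPT and 8 higher and 7 lower with ETO over the 31 genes of the list tested. LIG4, the ligase of non-homologous end joining, had 10.3, 8.87 and 9.35 CPM with CPT, 9.45, 9.46 and 13.0 CPM with ETO and 14.8, 15.5 and 16.3 CPM in control. Both drug groups lay under control (-0.71 ± 0.14, edgeR adjusted p = 0.00026 with CPT, and -0.55 ± 0.14, edgeR adjusted p = 0.0035 with ETO). XRCC4, the partner that LIG4 needs, had 3.33, 2.59 and 3.26 CPM with CPT, 4.27, 5.92 and 4.54 CPM with ETO and 5.30, 5.47 and 4.90 CPM in control (-0.77 ± 0.21 with CPT, edgeR adjusted p = 0.0042). ETO overlapped control for XRCC4 (-0.08 ± 0.2, edgeR adjusted p = 0.79). MDC1, a mediator of the damage signal at breaks, and NBN, of the MRN complex, were the 2 higher ones with CPT, at 0.27 ± 0.08 and 0.25 ± 0.08 (edgeR adjusted p of 0.0079 and 0.017). All MDC1 reads mapped to several places, and its call was lost without CPT replicate 2 (edgeR adjusted p = 0.061). The NBN call was lost without CPT replicate 1 or control replicate 2 or 3 (edgeR adjusted p up to 0.12).

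The B cell, myeloid, erythroid and epithelial marker lists had 0 T-rich members, and the lists not yet described had 1 to 6 each. Both G1/S members, CCNE2 (cyclin E2) and PCNA (the replication clamp), rose with CPT, by 0.94 ± 0.09 and 0.30 ± 0.06 on the log2 scale (edgeR adjusted p of 3e-08 and 0.0006), in a list with 23 of 28 genes higher. CCNE2 had 44.1, 46.1 and 43.8 CPM with CPT, 30.3, 28.1 and 27.4 CPM with ETO and 21.8, 21.8 and 26.1 CPM in control. Of 6 RAB and RAS family GTPases, 4 were lower and 0 higher with each drug, against 19 lower and 6 higher with CPT and 16 lower and 2 higher with ETO over the 41 genes of the list tested. RAB10 was lower with CPT and not called with ETO, and RAP2C the other way round (lost without ETO replicate 2, edgeR adjusted p = 0.06). RAB1A and RAB2A, which act in transport between the endoplasmic reticulum and the Golgi, stood at -0.60 ± 0.06 and -0.52 ± 0.07 with CPT (edgeR adjusted p of 6.3e-08 and 2e-06). Of 5 ubiquitin conjugating enzymes, 3 were lower and 0 higher with each drug, against 15 lower and 3 higher with CPT and 10 lower and 2 higher with ETO over the 26 genes of the list tested. UBE2B was called with ETO alone, and the UBE2D1 calls with both drugs were lost without control replicate 2 or 3 (edgeR adjusted p up to 0.071). UBE2E2, called with CPT alone, stood at -1.13 ± 0.1 with CPT (edgeR adjusted p = 9.8e-09). ELF1, an ETS factor of T cells, rose by 0.61 ± 0.11 with CPT (edgeR adjusted p = 0.0001) and 0.54 ± 0.11 with ETO (edgeR adjusted p = 0.00056), and ELF2 was not called. FDFT1, squalene synthase, fell by 1.23 ± 0.05 on the log2 scale with CPT (edgeR adjusted p = 6.8e-14) and by 1.06 ± 0.05 with ETO (edgeR adjusted p = 2.2e-12). Of its reads, 99.9% mapped to several places, and STARD4 of the same cholesterol list was not called. DNAJB9, a chaperone of the endoplasmic reticulum, rose with CPT by 0.58 ± 0.13 (edgeR adjusted p = 0.00065), and PPP1R15B was not called. CD3G, the single T-rich T cell marker, fell with CPT by 0.25 ± 0.05 (edgeR adjusted p = 0.00029). It fell with ETO by 0.15 ± 0.05 (edgeR adjusted p = 0.02), a call lost without ETO replicate 1 or 2 or control replicate 2. PAN3 and TOB1, of the mRNA decay list, were called with neither drug against control.

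The 6 most-read members were H2AZ1, HNRNPK, NPM1, EIF4G2, RAN and HINT1. H2AZ1, with 601868 reads, averaged 2250 ± 151 CPM with CPT, 2540 ± 61.8 CPM with ETO and 2220 ± 73.4 CPM in control, higher with ETO (0.19 ± 0.05, edgeR adjusted p = 0.0027) and not called with CPT. NPM1, nucleophosmin, a chaperone of ribosome assembly, had 1090, 1100 and 1040 CPM with CPT, 1640, 1650 and 1710 CPM with ETO and 2060, 2040 and 2050 CPM in control. The groups did not overlap (-0.93 ± 0.04 with CPT, edgeR adjusted p = 1.1e-13), and 60.3% of its reads mapped to several places. RAN, the GTPase of nuclear transport, fell with CPT (-0.59 ± 0.05, edgeR adjusted p = 6.7e-10), as did HINT1, a nucleotide hydrolase (-0.32 ± 0.05, edgeR adjusted p = 1.2e-05), and HNRNPK (-0.28 ± 0.08, edgeR adjusted p = 0.0054), which had 53.2% of its reads mapped to several places. EIF4G2 had a log2 fold change of 0.00 ± 0.04 with CPT and 0.06 ± 0.04 with ETO, neither called, while its conversion rate fell with CPT as given above.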

How the data were processed

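The authors' deposited tables give whole-number counts of reads, converted reads, T-to-C conversions at T positions and covered T positions per 3' UTR, made with slamdunk 0.4.3 over the 3' UTRs of GENCODE V33, per the file headers. The genome was GRCh38, per the submitters' processing notes. Mapping and filter settings and the least number of conversions in a converted read were not stated by the sources at hand. Multimapped reads are part of the counts, so similar copies of a gene share reads. RNA was treated with 10 mM iodoacetamide, per the labels' protocols.

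Rows that overlapped on a strand were grouped and the row with the most reads kept (on ties the shortest), before the length, read and T limits. Genes were assigned by position from a RefSeq GRCh38.p14 table, with a tolerance of 1000 bases, and gene spans come from it. Total RNA was tested with edgeR 4.0.16 (quasi-likelihood, TMM, filterByExpr, all 9 libraries in 1 fit) under R 4.3.3. The rate was tested with the same tool on conversions against unconverted T coverage with a term per library, for 3' UTRs with at least 50 conversions. P-values were adjusted by Benjamini-Hochberg over all 3' UTRs tested, at a threshold of 0.05. Alternatives used DESeq2 1.42.0 and limma 3.58.1, and tables were made with Python 3.11.15. The fits were tested on simulated data.

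Named genes are the up to 6 members with the largest changes in each direction against control (4 for CPT against ETO) past the threshold and without overlap, with 10 CPM in a group for total RNA. To these come the 6 highest and lowest control rates from at least 100 control conversions, the 4 highest T shares, the 6 most-read members and listed members, up to 4 per list past the threshold. Other members of a short list were named with their values in view. The members and the gene lists were chosen with earlier results of these data known. The replicate numbers showed no pairing of the libraries. Each library's log2 CPM was taken as a deviation from the mean of its group. These deviations correlated at -0.0345 to 0.00348 between same-numbered libraries of different groups. Of the 33 samples, the 9 Jurkat SLAM-seq libraries were used here, with 3 libraries a group.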

Additional observations from a re-analysis of the deposited data

How the results depend on the processing

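Values below are the percent of members called in either direction. For total RNA all alternatives kept the direction of the split and lay within 1.5 times the reported 53.5% (CPT against control), 40.5% (ETO against control) and 31.8% (CPT against ETO), with 46.6 to 53.5%, 32.4 to 42.1% and 25.1 to 31.6% on leaving out 1 library. Rate calls depended on the setting. For CPT against control (13.3%) they were 22.9% with at least 200 conversions, 2.98% with only these 2 groups in the fit, 0.0741% (1 member, higher) relative to the pooled rate of the library, and 0.0 to 20.6% without 1 library, with no call left on leaving out any control library. For ETO against control (0.222%) they were 0.0% by converted reads, by limma on log2 rates and relative to the pooled rate, 1.65% with only these 2 groups, and 0.0 to 0.372% without 1 library. For CPT against ETO (26.4%) they were 16.0% with no filter on conversions, 0.869% with only these 2 groups, 0.0% relative to the pooled rate, and 8.53 to 30.1% without 1 library. The cause was not tested. The replicate numbers were fitted as a block although they showed no pairing of the libraries: with the replicate block the calls were 52.4%, 38.8% and 29.8% for total RNA in the order above, and 2.44%, 0.0% and 14.2% for the rate.

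The control median rate of 0.320% was 0.336% at a T share of 0.38 or more, 0.303% with at least 3000 reads, 0.302% with the limits applied before the choice of rows and 0.356% for members with at least 100 control conversions (0.251% in the rest), and 0.315 to 0.324% without 1 control library. Relative to the pooled rate of the library the median CPT change was -0.38 in place of -1.0 on the log2 scale, and these rates reversed. CPT against control turned to 0.06 for EIF4G2, 0.25 for H2AZ1 and 0.10 for HNRNPD. CPT against ETO turned to 0.01 for CDK1, 0.20 for EIF4G2, 0.28 for H2AZ1, 0.04 for HNRNPD, 0.16 for HNRNPDL, 0.11 for HNRNPH1, 0.08 for HNRNPK, 0.14 for NPM1, 0.33 for PCNA, 0.14 for RAN and 0.04 for TOP2B. Of the called results of named genes, 158 of 190 in total RNA and 0 of 76 in the rate were kept in every alternative run. Converted reads, the longest row on ties and the minimum of 100 control conversions were chosen after seeing the data. Depth limits the rate: a CPT library held 78727 to 99096 conversions over all members.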
